A study of Homo sapiens with 4 samples.

Results

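TBX3 sites at gene ends are the regions where a peak of the TBX3 profile lay in the 3' UTR of a transcript or at its transcription termination site (TTS), and where both ChIP replicates placed a summit. A peak of the replicate 1 list entered when its deposited annotation began with TTS or 3' UTR and when a summit of the replicate 2 list lay within 200 bp, each summit being the nearest to the other. There were 381 such sites among 22702 regions shared by the 2 lists (1.68%, 95% Wilson interval 1.52 to 1.85%). Of these, 241 were in the TTS class and 140 in the 3' UTR class.

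The profile came from ChIP-seq in 501mel cells, an established human melanoma line. The cells carried TBX3-3xHA, TBX3 with a triplicated HA peptide, and formaldehyde-fixed, sonicated chromatin was precipitated with the anti-HA antibody 12CA5. How the tagged protein was expressed, and at what level, is not given in the sources used here. There was a single condition with 2 ChIP samples, so no sites could be compared between treatments, and 2 input samples of sheared chromatin were not analysed here. Because the protein was tagged, the sites are those of the tagged protein as the antibody recovered it. The lists held 32479 peaks in replicate 1 and 40494 in replicate 2. Each peak was given as a single-base summit on hg38 with a peak score, whose scale is not stated in the sources used here. The depth of the libraries is unknown. Wilson intervals below cover counting error only.

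TBX3 belongs to the T-box proteins, transcription factors that bind DNA through a conserved domain and can repress their targets. In melanocytes and melanoma it is known for repressing the cadherin gene CDH1. The 3' UTR is the transcribed stretch between the stop codon and the end of the messenger RNA, and the TTS is the annotated end of the transcript. DNA at the end of a gene can also lie close to the start of a neighbour, inside a longer host gene, or next to a distal regulatory element.

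The sites at miRNA genes are the ones for which the sequence of the gene product could be shown. A miRNA is a short RNA that pairs with target messages through its seed, bases 2 to 8, printed here in capitals. The 12 sites of this kind lay beyond the ends of MIR6124, MIR3125, MIR6827, MIR3689A, MIR6073, MIR6503, MIR3139, MIR6876, MIR3692, MIR9-2, MIR6818 and MIR4711. Mature sequences for 11 of these genes came from RefSeq on GRCh38.p14, and their 18 mature miRNAs held 18 different seeds, so no seed was repeated. The following belong to the 5 genes with the highest scores in both lists and to MIR9-2, whose products are abundant in the developing nervous system.
hsa-miR-6124: gGGAAAAGgaagggggagga
hsa-miR-3125: uAGAGGAAgcuguggagaga
hsa-miR-6827-5p: uGGGAGCCaugagggucugugc
hsa-miR-6827-3p: aCCGUCUCuucuguuccccag
hsa-miR-3689a-5p: uGUGAUAUcaugguuccuggga
hsa-miR-3689a-3p: cUGGGAGGugugauaucguggu
hsa-miR-6073: gGUAGUGAguuaucagcuac
hsa-miR-9-5p: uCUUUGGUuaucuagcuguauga
hsa-miR-9-3p: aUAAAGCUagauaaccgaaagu

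The T-box motif AGGTGTGA, searched on both strands and read with U for T in RNA, was present in 1 of the 18, hsa-miR-3689a-3p, where it begins within the seed. Of 2545 mature miRNAs in the table, 11 held these letters (0.432%). The match is a description of letters and not of a bound site.

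At a single site, the TTS site of MATN1, the summits fell within a promoter window of the RefSeq table. MATN1 encodes matrilin-1, a protein of cartilage matrix. The site had scores of 42.3 in replicate 1 and 91.0 in replicate 2, and its summits were at positions 30710310 and 30710305 of chromosome 1. They lay in the RefSeq promoter window of LOC124903888 (chr1:30710130-30710429, minus strand). The 30 bases around the replicate 1 summit are shown with the summit base in capitals, and the 30 bases around the T-box motif with that motif in capitals, both on the plus strand of GRCh38.p14.
MATN1 summit, chr1:30710295-30710324: gcagcagccagaccaTacagcacctaaggt
MATN1 motif, chr1:30710376-30710405: ttcttgagcagAGGTGTGAactgatcagat

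The motif AGGTGTGA began 77 bp from the replicate 1 summit. In 35116 promoter windows of the same length, searched on both strands, 0.980% held AGGTGTGA, and 3.45% held the shorter core GGTGTGA that overlaps it. The MATN1 window held neither of the E-boxes CATGTG and CACGTG, read by MITF and related factors, nor the SOX core ACAAAG, which were in 11.1%, 7.26% and 16.1% of all windows.

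Gene ends took a small and similar share of both lists. They held 539 of 32479 peaks in replicate 1 (1.66%, 1.53 to 1.804%) and 640 of 40494 peaks in replicate 2 (1.58%, 1.46 to 1.71%), a mean of 1.62 ± 0.0559% (SD, n = 2). A partner in the other list was found for 381 of the 539 (70.7%), where it was found for 69.9% of all replicate 1 peaks. In replicate 2 it was found for 368 of the 640 (57.5%), beside 56.1% of all replicate 2 peaks. The pairing was used to choose the sites, so these shares are given as description only.

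Among the 381 sites, the replicate 2 list gave a gene-end class to 365 (95.8%) and the same class to 363 (95.3%). The other shared regions had the same class in both lists in 99.4% of cases. Of those regions 9016 were in introns and 12067 were intergenic, broader classes than gene ends, so the 2 shares are not like for like. The 2 summits of a site lay a median of 28 bp apart, as they did in the other shared regions, and 266 sites (69.8%) had them within 50 bp. The 158 gene-end peaks of replicate 1 without a partner had a median score of 6.38, where the members had 22.3. For 14 of those peaks the nearest replicate 2 summit lay 200 to 500 bp away, for 75 it lay 500 to 10000 bp away, and for 69 it lay beyond that.

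Just inside the 200 bp limit were SOX6 at 184 bp, LINC00563 at 185 bp, STX6 at 188 bp, PRKAR2A at 197 bp and LINC00533 at 198 bp, with replicate 1 scores of 12.4, 10.0, 12.7, 46.2 and 21.2. Just outside it were USP17L12 at 206 bp, ZNF79 at 216 bp, PTGFRN at 224 bp, AVL9 at 231 bp and LINC02912 at 234 bp, with scores of 5.43, 7.49, 16.3, 29.99 and 33.1. The scores on the 2 sides of the limit overlapped. The AVL9 peak outside the limit is separate from the paired AVL9 site described below.

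The sites spanned nearly the whole range of scores. In replicate 1 they ran from 2.3004 to 656 with a median of 22.3 and quartiles of 10.8 and 46.9, and in replicate 2 from 2.64 to 731 with a median of 34.3 and quartiles of 16.5 and 81.6. The score was higher in replicate 2 at 306 sites. Because the scale is not stated and the lists differ in length, sites are set side by side below by their percentile, the position of their score within their own list. The median percentile was 67.8 in replicate 1 and 74.4 in replicate 2. The other 22321 shared regions had medians of 63.6 and 70.5, a difference of 4.15 and 3.83 percentile points. In replicate 2 it was 2.16 without satellite repeats and 6.37 for pairing within 50 bp.

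By this measure gene ends stood below promoters, whose 573 shared regions had medians of 75.2 and 78.2. They stood above introns (63.6 and 72.6) and intergenic regions (62.9 and 68.2) in both lists, and close to exons (69.1 and 74.0), below them in replicate 1 and above them in replicate 2. The TTS class had medians of 67.3 and 73.4 and the 3' UTR class 69.1 and 75.3. The groups overlapped widely. The quartiles of the gene-end sites were 43.8 and 84.1 in replicate 1, and those of promoters 54.5 and 88.9.

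In the highest 10% of scores stood 66 gene-end sites in replicate 1 (17.3%, 13.9 to 21.4%), where 14.1% of all shared regions did. In replicate 2 it was 88 sites (23.1%, 19.1 to 27.6%), where 17.6% of all shared regions did. The interval of replicate 1 reached down to that background and the interval of replicate 2 did not. There were 63 sites in the highest 10% of both lists, a count that was not taken for the other shared regions. No test was made, because regions of 1 library are not replicates of a condition.

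Across the 381 sites the scores of the 2 lists had a Spearman's rho of 0.88, and across the other shared regions 0.85. Both are descriptions across regions, all of which share the same 2 libraries. The plot of both scores shows a band that lies mostly above the line of equal scores and widens at low scores.

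**Figure D1:**
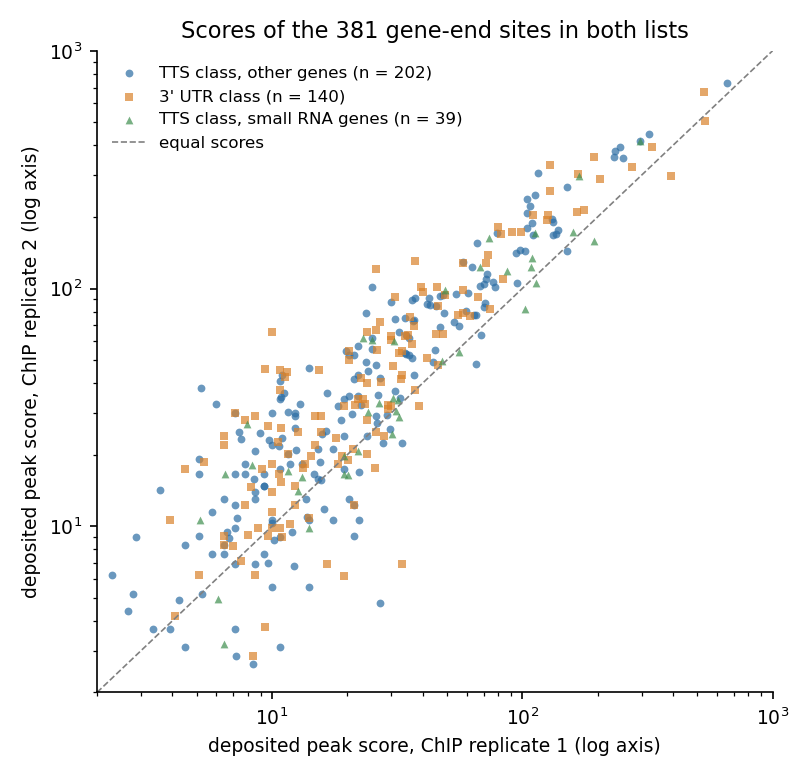
Deposited peak scores of the 381 gene-end sites in ChIP replicate 1 (horizontal, log axis) and replicate 2 (vertical, log axis). Each point is 1 site, coloured by annotation class and by whether the gene is a small RNA gene (39 sites). The score is higher in replicate 2 at 306 sites, a count not taken for the other shared regions.

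Among the 15 sites with the lowest sum of score ranks, 14 are described here, at ERP27, FNBP1L, ZHX3, SPPL3, DTX3L, SAE1, MIR6124, CD59, the transcript NM_001355387, SHROOM1, AVL9, ZEB2, PRTFDC1 and VPS50. They were in the TTS class at 7 and in the 3' UTR class at 7, and all 14 stood in the highest 10% of both lists. The nearest transcription start site (TSS) belonged to another gene at 8 of them and to the same gene at 5. The choice by rank fixes that their scores are high.

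The strongest was the TTS site of ERP27, which encodes an endoplasmic reticulum protein of the disulfide isomerase family. It scored 656 in replicate 1 and 731 in replicate 2, with the replicate 1 summit at position 14913704 of chromosome 12, 335 bp beyond the gene. Another shared region lay 2292 bp away. The next was in the 3' UTR of FNBP1L, which encodes a membrane-bending protein that promotes actin assembly. It scored 531 and 669 at position 93553253 of chromosome 1, in exon 15 of 15 and 1408 bp before the gene's 3' limit. A further 3' UTR site lay in ZHX3, a gene for a transcriptional repressor with zinc fingers and homeodomains. It scored 536 and 506 at position 41179241 of chromosome 20, in exon 4 of 4. These 3 sites were the only gene-end sites above 500 in both lists.

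SPPL3, a gene for an intramembrane protease of the Golgi that releases glycosyltransferases, had a TTS site with scores of 321 and 446. It lay at position 120761776 of chromosome 12, 734 bp beyond the gene. DTX3L, a gene for a ubiquitin ligase of the interferon response, had a 3' UTR site with scores of 331 and 394 at position 122573154 of chromosome 3. Its nearest TSS was that of PARP15, 4448 bp away. SAE1, which encodes a subunit of the enzyme that activates SUMO, had a TTS site with scores of 295 and 419 at position 47210761 of chromosome 19, 125 bp outside the gene. In each of these 3 sites the summits of the 2 lists were 2, 2 and 5 bp apart.

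The MIR6124 site scored 295 and 418 at position 12164273 of chromosome 11, beyond the end of the miRNA and within the gene MICAL2. CD59 encodes a membrane-anchored inhibitor of complement, and its TTS site scored 247 and 395 at position 33702177 of chromosome 11. That site lay 833 bp beyond CD59 and inside C11orf91, 1437 bp from the TSS of that gene. So a single summit was at the end of one gene and within the span of another at both places. The transcript NM_001355387 has no entry in the gene table used. Its 3' UTR site scored 393 and 297 at position 663908 of chromosome 10, inside the gene DIP2C, with PRR26 as the gene of the nearest TSS.

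SHROOM1, a gene of the Shroom family of actin-associated proteins, had a TTS site of 252 and 355 at position 132821193 of chromosome 5, 948 bp beyond the gene. AVL9, related to a yeast gene of late secretory traffic, had a 3' UTR site of 275 and 325 at position 32587655 of chromosome 7. PRTFDC1, which encodes a protein related to a purine salvage enzyme, had a 3' UTR site of 194 and 357 at position 24849817 of chromosome 10. VPS50, which encodes a subunit of a complex for endosomal recycling, had a 3' UTR site of 204 and 289 at position 93359701 of chromosome 7. The lower end of these 14 sites thus remained near the top of each list, at percentiles of 98.1 and 98.5 or more.

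ZEB2 encodes a zinc finger and homeobox repressor with roles in the melanocyte lineage. Its TTS site scored 233 and 358 at position 144510552 of chromosome 2, and 12 shared regions lay within the gene. This site was not at the main end of ZEB2. It marked the end of a short non-coding transcript, 126471 bp upstream of the gene's 3' limit, and its nearest TSS was that of ZEB2-AS1 at 9062 bp. The plot of the 14 sites shows that 12 had the higher score in replicate 2, with ZHX3 and NM_001355387 as the 2 exceptions.

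**Figure D2:**
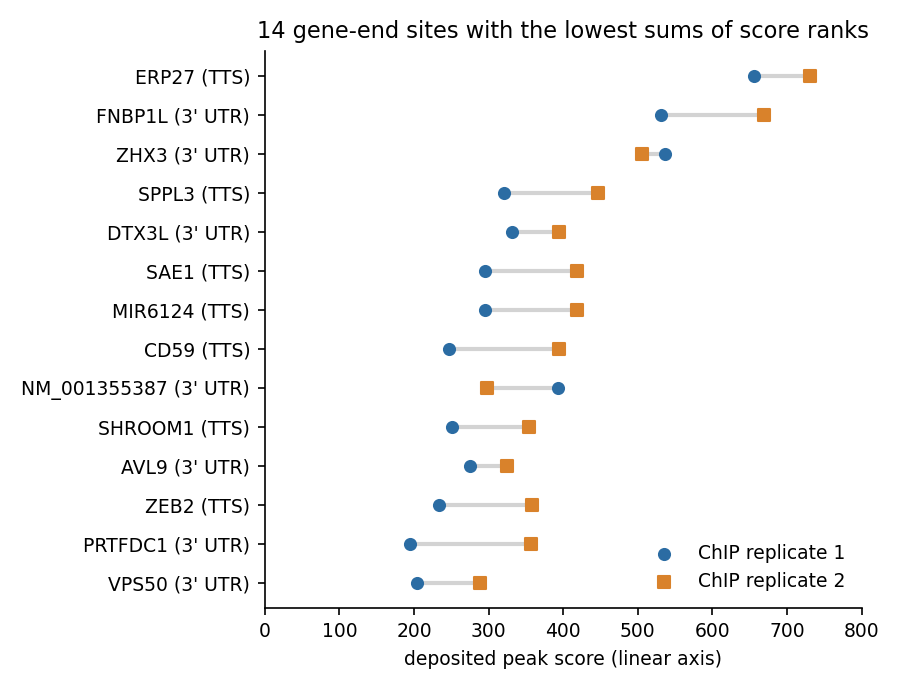
Deposited peak scores (linear axis) of 14 gene-end sites with the lowest sums of score ranks, labelled by gene or transcript and annotation class. Circles are ChIP replicate 1 and squares replicate 2; the lines join the 2 scores of a site, and ERP27 is highest at 656 and 731.

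The 2 annotation classes differed in where their summits lay. For 124 protein-coding TTS sites with a known strand the median position was 241.5 bp beyond the 3' limit of the gene, and 98 were within 1 kb of it. Beyond the limit were 88, all within 1 kb. For 133 such 3' UTR sites the median was 2113 bp before the limit, and 39 were within 1 kb. In the TTS class 15 sites and in the 3' UTR class 14 lay more than 10 kb upstream, annotated to transcripts that end before the gene's limit, as at ZEB2. Part of this difference, including how close the TTS sites lie to the limit, is set by how the classes are defined. Of the 140 3' UTR sites, 139 were in the last exon of their transcript.

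**Figure D3:**
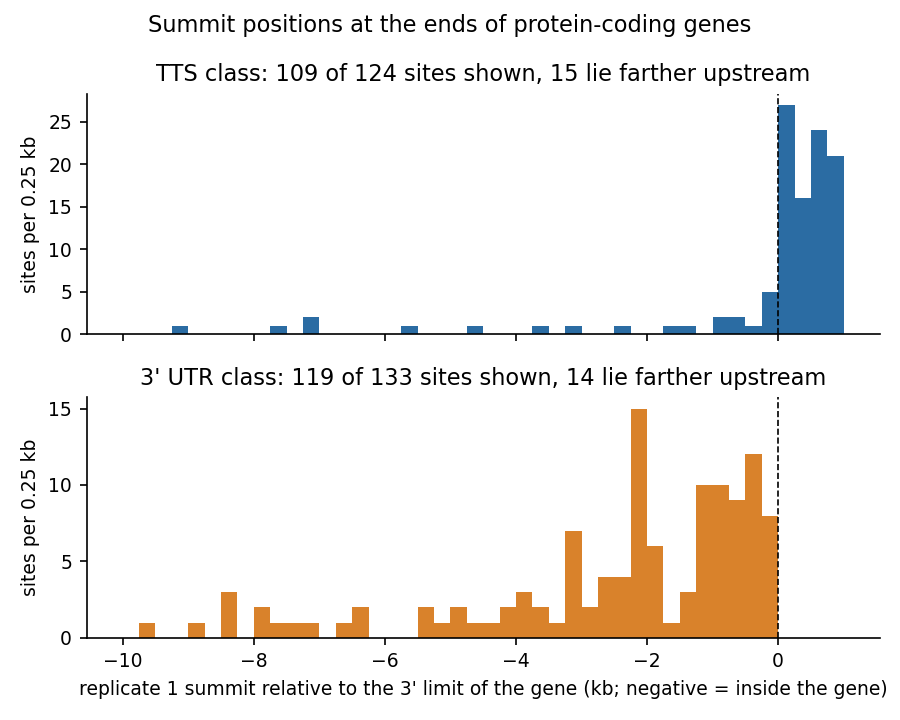
Number of sites per 0.25 kb (vertical) by position of the replicate 1 summit relative to the 3' limit of the protein-coding gene (horizontal, kb, negative inside the gene), for the TTS class (109 of 124 sites shown) and the 3' UTR class (119 of 133). TTS sites cluster just beyond the limit and 3' UTR sites spread over several kb before it.

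Gene ends as a whole were nearer to a TSS than other shared regions were, and the small RNA genes made up most of the closest ones. The median distance was 12518 bp, where it was 52376 bp elsewhere, and 8486 bp for the TTS class and 23614 bp for the 3' UTR class. Within 10 kb of a TSS were 164 sites (43.0%, 38.2 to 48.1%), where 16.4% of the other shared regions were. Within 1 kb were 41 (10.8%, 8.03 to 14.3%), where 3.81% of the others were, but 36 of the 41 were ends of snRNA, snoRNA or miRNA genes, which lie close to the gene's own start. Without small RNA gene ends, a setting chosen after seeing the data, 5 of 342 sites lay within 1 kb (1.46%, 0.626 to 3.38%), below the other shared regions. Within 10 kb it was then 125 of 342 (36.5%, 31.6 to 41.8%), and the median distance was 14731 bp, so these values kept their direction. Gene ends lie within or next to genes by definition, and the other regions include intergenic ones. The others also include the 573 promoter regions, all within 996 bp of a TSS, a class that a gene-end site cannot carry. The comparison within 1 kb is thus partly set by the classes.

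The nearest TSS often belonged to a different gene from the one that ended at the site. This was so for 187 of 357 sites with a matched transcript (52.4%, 47.2 to 57.5%), and for 160 of 272 protein-coding sites (58.8%). A neighbouring coding gene read towards the site, tail to tail within 5 kb, at 30 of 247 genes (12.1%), and at 12.2% of the other protein-coding genes. A neighbour starting there, tail to head within 5 kb, was found at 8 of 247 (3.24%, 1.65 to 6.26%), and at 9.52% of the other genes. Summits annotated to a neighbour's promoter could not enter the gene-end sites, so this share is partly set by the classes. Inside the span of another protein-coding gene lay 56 of the 381 sites (14.7%), a share that was not taken for the other shared regions.

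The sites fell at 262 of 20033 protein-coding genes, which is 1.31% of them. Most genes had a single site: of 345 genes matched by transcript, 333 had 1 and 12 had 2. Genes with a gene-end site were longer, with a median length of 56162.5 bp beside 23917 bp for those without. They were shorter than the 3964 coding genes that had a shared region in their span but no gene-end site, whose median was 105133 bp. Another shared region lay within the span of 122 of the 262 genes (46.6%, 40.6 to 52.6%), where 20.0% of the other coding genes had a shared region. A shared region at the gene's own promoter was found at 13 of the 262 (4.96%, 2.92 to 8.30%), where 2.00% of the other genes had one.

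Because long genes have more room for a region, the same shares were taken within 4 length classes of equal size. In genes of 51 to 8538 bp another region lay in 2 of 30 genes with a gene-end site (6.67%, 1.85 to 21.3%) and in 1.91% of genes without. In genes of 8539 to 24130 bp it was 9 of 46 (19.6%, 10.7 to 33.2%) and 6.67%. In genes of 24133 to 65135 bp it was 26 of 69 (37.7%, 27.2 to 49.5%) and 18.3%. In genes of 65159 bp and longer it was 85 of 117 (72.6%, 63.9 to 79.9%) and 53.8%. The share was higher at genes with a gene-end site in all 4 classes, and the intervals did not reach the other share except in the shortest class. The share of genes that had a gene-end site itself went from 0.599% in the shortest class to 2.34% in the longest.

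**Figure D4:**
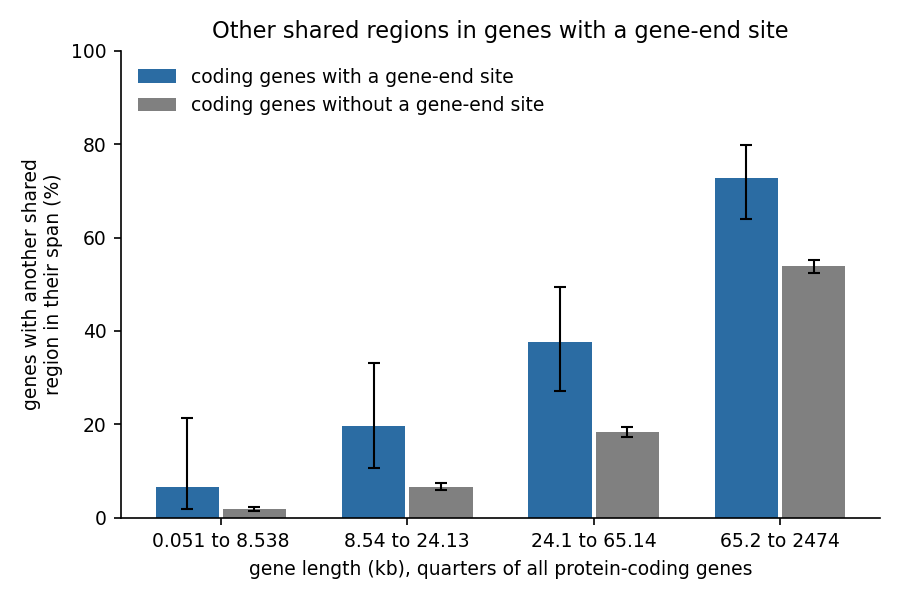
Share of protein-coding genes with another shared region in their span (vertical, percent), by gene length (horizontal, kb, 4 classes of equal size), for genes with and without a gene-end site. Bars are shares and lines 95% Wilson intervals; in the longest class the shares are 72.6% and 53.8%.

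Counted per gene, SEMA5A, which encodes a semaphorin of axon guidance, had the most other shared regions in its span, 53. It was followed by MACROD2 with 23, BCAR3 with 16, MITF with 15 and SOX6 with 14. These 5 genes were named after their values were seen. The remaining genes of the 262 had at most 12.

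Of the genes with 2 gene-end sites, 11 are described here, and the same site was the stronger in both lists at 10, all but CRTAP. The 11 were ABHD2, C1orf21, CD59, CDC42EP3, CRTAP, CST5, HERC2P10, MTURN, NEMP2, STPG4 and TECPR2, and their sites were 695 to 43358 bp apart, with a median of 2609 bp. At CD59 the TTS site scored 247 and 395 and the 3' UTR site 23.9 and 39.97, a ratio of 10.3 in replicate 1 and 9.88 in replicate 2. At CDC42EP3, a gene for an effector of the small GTPase CDC42, the 3' UTR site scored 80.05 and 182 and the TTS site 6.43 and 13.1. So the stronger site was beyond the gene at CD59 and within the transcript at CDC42EP3. At TECPR2, a gene of the autophagy machinery, the 2 sites in the 3' UTR scored 98.8 and 173 at one and 10.99 and 9.04 at the other. At the pseudogene HERC2P10, a partial copy of HERC2, the ratio was 3.48 in replicate 1 and 29.7 in replicate 2, so the lists differed most there.

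Among genes of the melanocyte lineage, MITF and KIT had gene-end sites. MITF encodes the lineage transcription factor that drives pigment genes. Its 3' UTR site, in exon 10, scored 39.5 in replicate 1 and 101.3 in replicate 2 at position 69967174 of chromosome 3, 1158 bp before the end of the gene. In all 16 shared regions lay within MITF, and its own promoter had one. KIT encodes the receptor tyrosine kinase for stem cell factor. Its TTS site scored 22.1 and 57.1 at position 54741221 of chromosome 4, 506 bp beyond the gene. Both sites stood higher in their list in replicate 2, at percentiles of 91.5 and 83.9, than in replicate 1, at 81.0 and 67.3. Most shared regions moved this way: the percentile was lower in replicate 2 at 115 of the 381 gene-end sites and at 7368 of the 22321 others. These were 2 of 33 genes of the pigmentation list.

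Of 43 neural crest and lineage transcription factors, MITF, SOX6 and ZEB2 had a site. SOX6, a gene for a SOX factor without a transactivation domain, had a 3' UTR site of 12.4 and 14.8 at position 15971265 of chromosome 11. The MIR6073 site, with scores of 67.7 and 123, lay 2559 bp from it, also within SOX6. The gene held 15 shared regions. The stronger of the 2 sites at this end of SOX6 was therefore the one annotated to the miRNA.

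In the list of MAPK feedback and output genes, 2 of 44 had a site. ETV5 encodes an ETS transcription factor induced by ERK signalling. Its 3' UTR site scored 72.7 and 138 at position 186047065 of chromosome 3, with summits 2 bp apart, and was in the highest 10% of both lists. IER2, an immediate early gene, had a TTS site of 36.9 and 43.4 at position 13155672 of chromosome 19, 761 bp beyond the gene. After ZEB2, the ETV5 site was the strongest of the listed genes.

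Each of the remaining listed genes was below the highest 10%. In the adhesion and matrix list 2 of 49 had a site: ITGB5, which encodes an integrin beta subunit, with 33.0 and 22.4, and MMP14, which encodes a membrane-bound matrix metalloproteinase, with 9.62 and 7.001. In the list of pheomelanin and cysteine genes it was 1 of 16, SLC1A4, a neutral amino acid transporter gene that can carry cysteine, with 11.4 and 44.5. In the cAMP pathway list it was 1 of 34, PRKAR2A, a regulatory subunit gene of protein kinase A, with 46.2 and 47.7. ITGB5, MMP14 and PRKAR2A had the lower percentile in replicate 2, and SLC1A4 moved from 45.5 to 79.7.

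No gene-end site was found at the 17 listed T-box targets, 40 lysosome and autophagy genes, 39 cell cycle genes, 23 survival genes, or 53 genes of the Wnt, Notch and TGF-beta pathways. Over all 11 lists 10 of 371 genes had a site (2.70%), beside the 1.31% of all protein-coding genes given above. The lists were chosen with earlier results of these data known, and the 2 shares were not matched for gene length. Among all protein-coding genes the share with a site went from 0.599% in the shortest length class to 2.34% in the longest. Counts of 0 to 3 genes a list are too few to order the lists. MC1R and TBX3 themselves had no gene-end site, while TBX3 had a shared region at its promoter. MC3R, a melanocortin receptor gene of the same family as MC1R, had a TTS site of 116 and 306 at position 56250132 of chromosome 20, 317 bp beyond the gene. It was named after its values were seen.

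Small RNA genes took 39 of the 381 sites: 21 at snRNA genes, 12 at miRNA genes, 5 at snoRNA genes and 1 at SCARNA6. The snRNA genes encode the RNA components of the spliceosome. By location, 19 of the 21 sites lay within 1 kb of an snRNA gene of the gene table, and 20 of the 154 snRNA genes had such a site (13.0%, 8.57 to 19.2%). The other 2 sites carried a U1 name in the deposited annotation only. Of these, 1 was on an unlocalised sequence of chromosome 1, and only genes on the named chromosomes were matched by location. The protein-coding genes took 272 sites and the lncRNA genes 52. The count by location was not taken for other kinds of gene, so the 13.0% has no background beside it. In that count the RNU6-8 site stands for both RNU6-7 and RNU6-8. By the gene assigned to each site, 12 of the 154 snRNA genes had one (7.79%). The share was 1.31% for protein-coding, 0.627% for miRNA, 0.417% for snoRNA and 0.279% for lncRNA genes. Shared regions within 2 kb of the TSS of an snRNA gene were annotated TTS at 22, promoter at 3 and intron at 1.

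The 10 sites that the deposited annotation named for U1 genes were the highest of any family, with median percentiles of 93.2 in replicate 1 and 92.2 in replicate 2, and 6 of them stood in the highest 10% of each list. Their scores ran between 13.2 and 159.8 in the replicate 1 list, and between 16.2 and 172 in the replicate 2 list. U1 RNA recognises the start of an intron. The strongest scored 159.8 and 172 and was on an unlocalised sequence of chromosome 1, at a copy of a U1 transcript whose accession is annotated at several genes. The RNVU1-15 site on chromosome 1 scored 112 and 171. Chromosome 1 held 8 of the 10.

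The 6 sites that the annotation named RNU2-1 lay at other U2 copies of the tandem array on chromosome 17, between positions 43239839 and 43299876, and had scores between 21.98 and 32.2 in replicate 1, and in replicate 2 between 20.8 and 34.8. U2 RNA pairs with the intron's branch point. These 6 sites were more alike than those of U1, and none was in the highest 10%. The 3 sites at U5 genes, RNU5D-1, RNU5B-1 and RNU5A-1, ran from 6.06 to 30.1 and from 4.96 to 24.5. RNU6-8 had 47.6 and 49.4, and RNU4ATAC, of the minor spliceosome, had 20.1 and 16.4.

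Of the 21 snRNA sites, 13 were on transcripts annotated at several places in the genome. How reads that fit several copies were treated is not given in the sources used here, so values at single copies of U1 and U2 genes are uncertain, and the part of copy number in them was not tested. At the 21 snRNA sites the percentile was lower in replicate 2 at 13, where it was lower at 115 of all 381 sites. In the other shared regions it was lower at 7368 of 22321. The 13 were 4 of 10 U1, 5 of 6 U2, 2 of 3 U5 and 2 of 2 other snRNA sites. The median shift from replicate 1 to replicate 2 was small, -0.986 percentile points over the 21 sites.

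Among snoRNA and scaRNA genes, whose products include guides of RNA modification, SCARNA6 scored 114 and 105 within ATG16L1. SNORD3B-2 scored 56.1 and 54.0, SNORD3C 19.4 and 19.7, and SNORD3D 5.14 and 10.6, all on chromosome 17. SNORD1A had 8.32 and 18.1 and SNORA19 14.1 and 9.86. The family therefore spread from the low end of the list to the highest 10% in replicate 1, with percentiles of 16.4 to 94.97.

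The miRNA sites had median percentiles of 69.6 and 85.1, and 10 of the 12 lay inside a protein-coding gene. After MIR6124, the highest were MIR3125 with 168 and 298, inside TRIB2, and MIR6827 with 193 and 158, inside AMOTL2. MIR3689A, the gene of the miRNA that holds the T-box letters, scored 73.5 and 163 at position 134849030 of chromosome 9, 457 bp from the end of its hairpin. MIR9-2 scored 11.6 and 17.1. Its host gene MIR9-2HG had a separate and stronger site, 132 and 167, named after its values were seen. That site lay only 1981 bp from the MIR9-2 site. It was at the end of a shorter transcript, 125676 bp upstream of the host gene's 3' limit. MIR4711 was lowest in replicate 2, with 6.43 and 3.20. The summits lay 45 to 940 bp from the ends of the 11 hairpins in the RefSeq table, so they are nearby positions and not the miRNAs themselves.

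The 52 lncRNA sites had median percentiles of 55.3 and 69.8, and the 272 protein-coding sites 68.8 and 75.9. The 7 pseudogene sites had 60.6 and 41.0, and the 11 sites whose transcript was not matched 56.5 and 65.3. Without the 39 small RNA sites the remaining 342 had medians of 67.0 and 74.4. The plot by kind of gene shows U1 sites near the top of both lists, and protein-coding and lncRNA sites over the whole range.

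**Figure D5:**
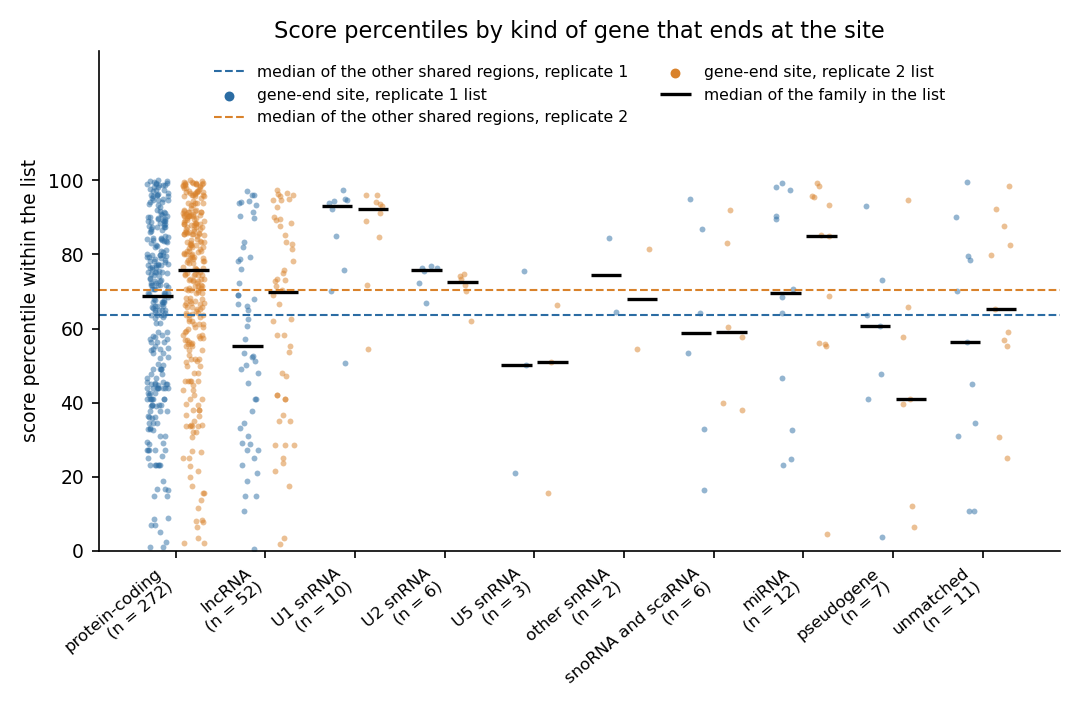
Score percentile within the list (vertical) of every gene-end site by kind of gene that ends there (horizontal, with the number of sites), for the replicate 1 list and the replicate 2 list. Black bars are family medians and dashed lines the medians of the other shared regions, 63.6 and 70.5; the 10 U1 sites have medians of 93.2 and 92.2.

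Across chromosomes the sites were most frequent on chromosome 1, with 60 (15.7%, 12.4 to 19.7%), where 12.4% of the other shared regions were, and 8 of the 60 were U1 sites. Chromosome 17 held 19 (4.99%), beside 2.47% of the others, and 6 of these were the U2 sites. Chromosome 13 held 8 (2.0997%), beside 5.48% of the others. Gene-end sites need an annotated transcript end, while 12067 of the other shared regions were intergenic. The chromosome shares were not set beside the number of genes on each chromosome, so they are description only. Within 10 kb of another shared region lay 127 sites, and 54 were more than 100 kb from the next one. These spacings were not taken for the other shared regions, so they are not a trait of gene ends.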

How the data were processed

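ChIP-seq peak lists of 2 ChIP samples were analysed. Per the file headers, the authors annotated summits of each sample separately with HOMER's annotatePeaks.pl on hg38, so replicates were not pooled. Each list carries the authors' peak score and the distance to the TSS, both used as deposited. The submitters' processing notes name FastQC 0.11.7, cutadapt 2.8, Bowtie2 2.3.5, MACS2 2.1.2 and SAMtools 1.9. Aligner settings, the calling threshold and control, the scale of the score and the treatment of reads that map to several places are not given in the sources used here. The labels do not say whether the replicates were separate cultures.

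Summits were paired when mutually nearest within 200 bp, and the pairing was tested on simulated data. Scores were ranked within their own list only. Transcripts were matched by accession to the RefSeq gene table of GRCh38.p14: 357 sites matched, 13 were assigned to the nearest small RNA gene, and 11 stayed unmatched. Gene strands came from RefSeq sequence tables or else from the deposited distances, which gave the same strand as those tables for 6911 of 7178 genes (96.28%). Results are descriptions with 95% Wilson intervals, without a test, since a single condition was profiled. Members and gene lists were chosen with earlier results of these data known. Sites named were the 15 with the lowest rank sum, those at listed genes, genes with 2 sites or more, and 5 on each side of the pairing limit; others are said to have been named after their values were seen. A site among the 15 and a gene with 2 sites are not reported here. No genome sequence was used here, so motifs were read only in RefSeq promoter and miRNA tables. Alternatives covered the pairing distance, the class, score limits and the genes used. Python 3.11.15, pandas 2.3.3, numpy 2.4.6, scipy 1.17.1 and matplotlib 3.10.9 were used.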

Additional observations from a re-analysis of the deposited data

How the results depend on the processing

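The number of sites was 266 to 395 for pairing within 50 to 500 bp and 245 among peaks at or above the median score of their list. With those stronger peaks the mean share of gene ends in a list was 1.72%; without replicate 1 or replicate 2 it was 1.58% or 1.66%. The share of gene-end peaks with a partner was 49.4% and 40.5% (replicates 1 and 2) at 50 bp, 64.2% and 52.3% at 100 bp, and 85.4% and 66.1% for the stronger peaks. The percentile difference from the other shared regions stayed above 0 under all alternatives run. It was 5.596 and 6.37 at 50 bp, 3.51 and 3.00 at 100 bp, 5.15 and 4.45 at 500 bp, 3.67 and 2.83 for the TTS class, and 5.52 and 4.81 for the 3' UTR class. Without satellites it was 2.16 in replicate 2, and without small RNA gene ends, an alternative chosen after seeing the data, 3.36 in replicate 1. The nearest TSS belonged to another gene at 58.8% of protein-coding sites, and 59.2% of genes had another shared region in a span widened by 10 kb. Without small RNA gene ends, again chosen after seeing the data, the share near a TSS was set against that of the other shared regions. Within 1 kb the difference changed from 6.95 to -2.35 percentage points, and within 10 kb from 26.6 to 20.1. Those other regions include the promoter class, so the value within 1 kb is partly set by the classes. Of 41 alternatives, 17 moved their value by less than its error or, for the number of sites, by less than 1.5 times. No paired analysis was possible because the input samples were not analysed here and the ChIP samples form a single condition. Motif alternatives at the summits were not run, since no genome sequence was used. Depth is unknown, so it could not be set beside any count.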
